A study of Mus musculus with 16 samples.

Results

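Hearts of young mice without the mineralocorticoid receptor in cardiomyocytes were compared with hearts of control littermates at 1 month of age. The comparison used 8 of the 16 arrays of the series, 4 of each genotype, chosen by the genotype and age in their titles. The cardioMRKO mice carried a floxed allele of Nr3c2 (MRflox) and αMHC-Cre, a recombinase expressed from a promoter of cardiomyocytes, so the other cells of the heart kept the gene. The controls, called flox here, carried the same floxed allele and no Cre, so the effects of Cre itself and of receptor loss cannot be told apart. All mice were male on a C57BL/6 background. Each array measured the RNA of 1 whole heart, labelled with Cy3 from 500 ng of total RNA. The remaining 8 arrays held the same genotypes at 2 months of age and served here as a second set of hearts.

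The mineralocorticoid receptor is a nuclear receptor that binds aldosterone and, in tissues that do not inactivate them, glucocorticoids, and then acts on transcription at DNA elements that it shares with the glucocorticoid receptor (Nr3c1). In the kidney it controls sodium transport. In the heart, where cardiomyocytes hardly inactivate glucocorticoids, it is known for its part in hypertrophy, fibrosis and electrical remodelling, and it is blocked by drugs given in heart failure.

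Levels are log2 signals after subtraction of each array's 75th percentile, so a level of 0 equals that percentile. A level depends on the probe, and levels are compared between hearts and not between genes. Differences are cardioMRKO minus flox on the log2 scale with n = 4 arrays per group. Standard errors (SE) and adjusted p come from a limma fit over all 16 arrays and 20056 genes, and a gene was called at an adjusted p under 0.05. At 1 month 62.9% to 68.4% of the probes of an array were well above background, the 75th percentile lay between 597 and 806 intensity units, and no spot was saturated. Arrays of the same genotype correlated at 0.977 to 0.996, and arrays of different genotype at 0.978 to 0.991. Going by the names of the raw array data, the 4 arrays of a genotype lay on 1 slide of their own, so slide and genotype cannot be told apart. In whole-heart RNA, fewer cells of a type and less RNA per cell cannot be told apart.

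Arrays also differed within the genotypes. The mean level of 6 markers of lung and airway epithelium was −5.68, −5.30, −6.16 and 2.93 in flox replicates 1 to 4 and 2.05, −0.53, −5.88 and −0.92 in cardioMRKO replicates 1 to 4. That of 6 brown adipocyte markers was 2.65 to 3.57 in flox and 3.24 to 4.28 in cardioMRKO, except for −0.10 in cardioMRKO replicate 3. The principal component with the largest share of the variance (37.9%) had scores of −28.2, −25.2, −27.0 and 23.1 in flox and 54.6, 23.8, −31.9 and 10.8 in cardioMRKO, so it set flox replicate 4 with 3 of the cardioMRKO arrays and cardioMRKO replicate 3 with the other flox arrays. The counts of called genes below are given with and without the arrays that stood apart.

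The targeted gene was examined before the others. Nr3c2 stood at −4.22, −4.29, −4.56 and −4.76 on the flox arrays and −4.58, −4.79, −4.53 and −4.63 on the cardioMRKO arrays. The ranges overlapped, and the difference, −0.17 (SE 0.14), did not pass (limma adjusted p = 0.988; two-sided exact permutation p = 0.257). Its 95% interval of −0.48 to 0.13 holds the value of 0, and with normexp background correction the sign turned (0.016). A further 2 Nr3c2 probes were above background on no more than 1 of the 8 arrays. No source used here places these probes on the exons that Cre removes, so the level does not check the labels. Nr3c1, the glucocorticoid receptor gene, stood at 2.34, 2.37, 2.41 and 2.27 in flox and 2.70, 2.86, 2.63 and 2.46 in cardioMRKO. All cardioMRKO arrays lay above all flox arrays for that probe, and differed by 0.31 (two-sided exact permutation p = 0.0286, the smallest that 4 against 4 arrays allow), which did not pass over all genes (limma adjusted p = 0.638). The other 3 probes of Nr3c1 differed by 0.037 to 0.26 with overlapping arrays. In the hearts at 2 months the first Nr3c1 probe differed by −0.13 (two-sided exact permutation p = 0.229) and the other 3 by 0.23 to 0.40. Nr3c2 differed by −0.43 at that age (two-sided exact permutation p = 0.0286), which did not pass over all genes (limma adjusted p = 0.122).

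Of the 20056 genes, 19 were called at 1 month, 0.0947% of those tested. In cardioMRKO hearts 10 were higher (0.0499%) and 9 were lower (0.0449%), and 14 of the 19 have a gene symbol, 6 higher and 8 lower. An unadjusted p under 0.05 was found for 1207 genes (6.02%), 749 of them higher (3.73%) and 458 lower (2.28%). The groups did not overlap for 1531 genes (7.63%), with 792 higher (3.95%) and 739 lower (3.68%) in cardioMRKO. The difference was above 0 for 54.3% of genes and below 0 for 45.7%, with a median of 0.018. Scaling to the median of each array in place of the 75th percentile put 56.8% of genes below 0. A difference of more than 1 in size was found for 250 genes, of which 14 were called.

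**Figure D1:**
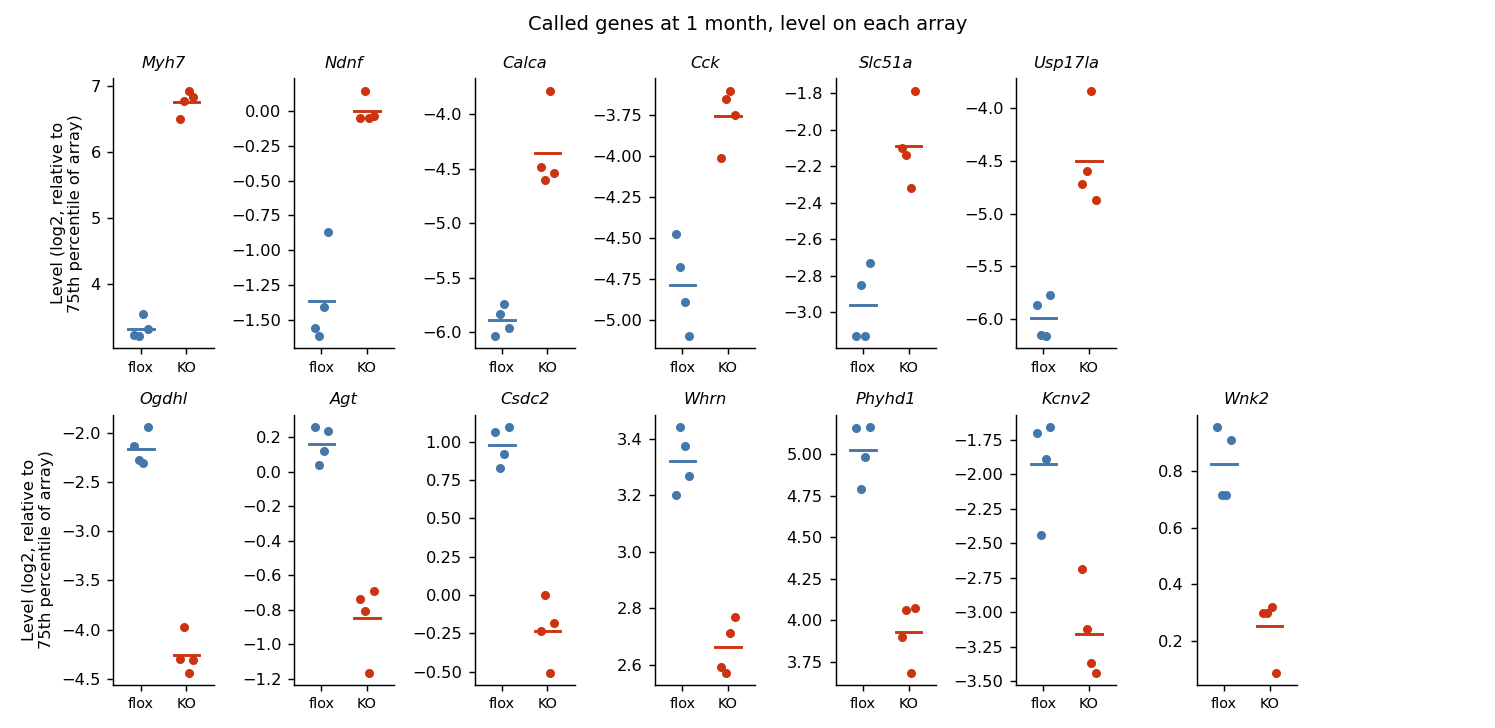
Level of each called gene described in the text on the 8 arrays at 1 month (y axis, log2 minus the 75th percentile; each panel has its own axis). Points are arrays, flox in blue and cardioMRKO (KO) in red, and bars are group means; genes higher in cardioMRKO are in the upper row and genes lower in the lower row, and the 4 red points of every panel lie on one side of the 4 blue points.

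The largest change among the called genes was in Myh7, the gene of the β-cardiac myosin heavy chain, the slow motor of the fetal mouse ventricle that gives way to the fast α form (Myh6) around birth. It stood at 3.23, 3.22, 3.55 and 3.32 on the flox arrays and at 6.50, 6.78, 6.94 and 6.84 on the cardioMRKO arrays. The group means lay 3.44 apart (SE 0.15, 10.8-fold, limma adjusted p = 2.17e-08), many times the spread of 0.15 to 0.19 (SD, n = 4) within a group. A second Myh7 probe gave 3.49, with no overlap either; how far these probes also take up the closely related Myh6 transcript was not tested. Myh6 lay at 8.27 to 8.51 in flox and 7.96 to 8.23 in cardioMRKO, a difference of −0.33 (limma adjusted p = 0.487) that was not called and came to −0.07 after quantile normalization. The RefSeq window around the Myh7 start is shown as that of the gene with the largest change. The window runs from 250 bases before to 50 bases after the start, on GRCm38.p6 chr14:54994577-54994876, minus strand, with capitals marking the M-CAT element CATTCC, here on the other strand, 201 bases before the start.
Myh7: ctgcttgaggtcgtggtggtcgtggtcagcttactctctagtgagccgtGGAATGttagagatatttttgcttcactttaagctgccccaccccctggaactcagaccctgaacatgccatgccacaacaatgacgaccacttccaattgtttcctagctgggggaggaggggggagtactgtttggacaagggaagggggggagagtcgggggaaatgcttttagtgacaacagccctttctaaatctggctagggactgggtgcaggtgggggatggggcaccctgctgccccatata
M-CAT elements are known as binding sites of TEAD factors in muscle genes. CATTCC is short and occurs in 14.7% of all 32851 windows, on either strand, and in 1 of the 10 called genes with a window.

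The neuropeptide genes Calca and Cck also rose. Calca encodes calcitonin and, by alternative splicing, the vasodilator calcitonin gene-related peptide. It stood at −6.03, −5.83, −5.74 and −5.96 in flox, where 3 of 4 arrays were above background, and at −4.49, −4.61, −3.78 and −4.54 in cardioMRKO. The difference was 1.54 (SE 0.17, limma adjusted p = 0.00151), with replicate 3 of cardioMRKO above the other arrays. Cck, the gene of the peptide hormone cholecystokinin, stood at −4.47, −4.67, −4.89 and −5.09 in flox and −4.01, −3.65, −3.60 and −3.75 in cardioMRKO, without overlap. It differed by 1.03 (SE 0.15, limma adjusted p = 0.0119). The second probe of each gene was above background on none of the 8 arrays and gives no second measurement. These genes were dim: with normexp background correction Calca differed by 0.42 (limma adjusted p = 0.609) and Cck by 0.40 (limma adjusted p = 0.625), and neither was called. With the mean of a gene's probes in place of the brightest probe, Cck differed by 0.15 and was not called.

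Of the 20 genes tested on the calcitonin and neuropeptide list, 10 lay above 0 and 10 below, with a median of 0.0074, and Calca and Cck were the called members. The receptor gene of the family with the smallest p, Cckbr (gastrin and cholecystokinin receptor), stood at −2.65 in flox replicate 1 and −4.55 to −4.05 in the other flox hearts, against −2.17 in cardioMRKO replicate 1 and −3.0 to −2.90 in the others. These ranges overlapped (difference 1.14, limma adjusted p = 0.686). Ramp3, a partner protein of the calcitonin-like receptor, differed by −0.28 and Tac1, the gene of substance P, by −0.45, and neither passed (limma adjusted p = 0.796 and 0.908). The windows of Calca and Cck are shown because both genes rose and both hold the core TGACG of the cyclic AMP response element, a known element of peptide genes, in capitals (CGTCA where it lies on the other strand). They are GRCm38.p6 chr7:114636308-114636607 and chr9:121495645-121495944, both on the minus strand, with the element 65 bases before the Calca start and 47 before that of Cck.
Calca: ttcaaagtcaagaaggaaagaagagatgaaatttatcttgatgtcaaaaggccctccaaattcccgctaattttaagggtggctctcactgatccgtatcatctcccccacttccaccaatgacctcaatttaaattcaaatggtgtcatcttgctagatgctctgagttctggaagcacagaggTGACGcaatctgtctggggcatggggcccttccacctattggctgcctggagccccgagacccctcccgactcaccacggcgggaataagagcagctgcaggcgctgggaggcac
Cck: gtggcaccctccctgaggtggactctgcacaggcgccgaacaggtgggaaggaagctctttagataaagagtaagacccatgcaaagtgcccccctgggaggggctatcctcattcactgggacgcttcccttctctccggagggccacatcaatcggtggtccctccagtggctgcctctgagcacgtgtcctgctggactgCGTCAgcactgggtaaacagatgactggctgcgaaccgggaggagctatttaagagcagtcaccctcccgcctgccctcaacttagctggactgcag
The core is short and occurs in 20.8% of all 32851 windows, on either strand.

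The other called genes that were higher in cardioMRKO code for a secreted factor, a transporter subunit and a deubiquitinase. Ndnf, a secreted factor known to act on neurons and vessels, stood at −1.56, −1.61, −1.41 and −0.87 in flox and at −0.052, 0.15, −0.054 and −0.036 in cardioMRKO. It rose by 1.36 (SE 0.14, limma adjusted p = 0.00135), and its second probe, 0.92 higher, did not overlap either. Slc51a, the α subunit of the steroid and bile acid transporter OST, stood at −3.13, −2.85, −3.13 and −2.73 against −2.10, −2.14, −2.32 and −1.78. The difference was 0.87 (SE 0.13, limma adjusted p = 0.0190). Slc51a was not called with normexp background correction (0.62, limma adjusted p = 0.053). Nor was it with quantile normalization (0.81, adjusted p = 0.059 by limma) or median scaling (0.83, adjusted p = 0.067 by limma). Usp17la, a deubiquitinase of a family of close copies that a probe may not separate, was above background on none of the 4 flox arrays and on all 4 cardioMRKO arrays, where it stood at −4.72, −4.60, −3.84 and −4.87. On the scaled levels it was at least 2.71-fold higher (limma adjusted p = 0.0254, group means −5.99 and −4.50). In that fold, the lowest signal well above background on an array stands in for the flox level where the flox level was below it. Usp17la was dim too: with normexp background correction it differed by 0.29 (limma adjusted p = 0.96) and was not called.

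Among the genes that fell, Ogdhl and Phyhd1 code for metabolic enzymes. Ogdhl, a close relative of the oxoglutarate dehydrogenase of the citric acid cycle, stood at −2.13, −2.27, −2.31 and −1.94 in flox and −4.30, −3.97, −4.44 and −4.31 in cardioMRKO. It was 2.09 lower on the log2 scale, 4.27-fold (SE 0.26, limma adjusted p = 0.00393). With normexp background correction the difference of Ogdhl was smaller, −1.12, and was still called. Phyhd1, a dioxygenase of the phytanoyl-CoA hydroxylase family, stood at 5.16, 4.79, 4.98 and 5.16 against 3.90, 4.06, 3.68 and 4.07 (difference −1.09, SE 0.17, limma adjusted p = 0.0190).

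Agt encodes angiotensinogen, the precursor of the angiotensin peptides that raise aldosterone. It stood at 0.26, 0.041, 0.12 and 0.23 in flox and at −0.74, −0.81, −1.16 and −0.69 in cardioMRKO. The difference was −1.01 (SE 0.14, limma adjusted p = 0.0108), 2.02-fold lower, and wider than the range within each group. Of the 15 genes tested on the renin-angiotensin list it was the called member, and 6 lay above and 9 below 0 with a median of −0.041. The Agt window is shown because this is the hormone gene that fell, and because the TATA box in capitals lies 30 bases before the start. It is GRCm38.p6 chr8:124569657-124569956, minus strand.
Agt: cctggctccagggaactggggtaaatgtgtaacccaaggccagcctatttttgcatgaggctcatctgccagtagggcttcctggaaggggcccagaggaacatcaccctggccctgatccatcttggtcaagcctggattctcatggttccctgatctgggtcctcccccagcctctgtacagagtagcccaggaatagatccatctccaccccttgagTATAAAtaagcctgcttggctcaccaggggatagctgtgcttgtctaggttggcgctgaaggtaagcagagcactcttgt
TATAAA occurs in 13.6% of all windows.

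The remaining genes that fell code for an ion channel subunit, a kinase, a scaffold and a nucleic acid binding protein. Kcnv2, a modifying subunit of voltage-gated potassium channels, stood at −1.70, −2.44, −1.89 and −1.66 in flox and −2.69, −3.12, −3.37 and −3.44 in cardioMRKO (difference −1.23, SE 0.21, limma adjusted p = 0.0352). With normexp background correction Kcnv2 differed by −0.74 (limma adjusted p = 0.275) and was not called. Wnk2, of the WNK kinases that regulate sodium and chloride cotransporters, stood at 0.95, 0.72, 0.72 and 0.91 against 0.30, 0.30, 0.32 and 0.089 (difference −0.57, SE 0.10, limma adjusted p = 0.0421). Wnk2 lost its call in each of the 8 fits that left out 1 array, where its difference was −0.61 to −0.52. It was also not called with normexp background correction (−0.50, limma adjusted p = 0.17). The same held with quantile normalization (−0.57, adjusted p = 0.056 by limma) and median scaling (−0.62, adjusted p = 0.14 by limma). Whrn, the scaffold protein whirlin known from hair cells, stood at 3.20, 3.44, 3.37 and 3.27 against 2.59, 2.57, 2.71 and 2.77 (difference −0.66, SE 0.09, limma adjusted p = 0.0119). With normexp background correction Whrn differed by −0.67 (limma adjusted p = 0.073) and was not called. Csdc2, a cold shock domain protein that binds RNA, stood at 1.06, 0.83, 0.92 and 1.09 against −0.24, −0.0026, −0.51 and −0.18 (difference −1.21, SE 0.17, limma adjusted p = 0.0109). In none of these 4 genes did the arrays of the genotypes overlap. The 32 potassium and sodium channel genes tested were split evenly, 16 above and 16 below 0 (median −0.0068), and of the 11 WNK and ion cotransport genes 7 lay above 0 and 4 below.

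A further 5 called probes have no gene symbol in the annotation used. Of these, 4 were higher, by 1.14, 1.04, 0.95 and 0.94, and 1 was lower, by −1.14. The lower probe stood at 2.28, 2.35, 2.57 and 2.37 in flox and 1.12, 1.34, 1.19 and 1.38 in cardioMRKO (limma adjusted p = 0.0307). At 2 months it was 2.62 higher in cardioMRKO, and it is the single called gene whose difference changed between the ages (by 3.75, limma adjusted p = 1.71e-05).

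RefSeq windows were found for 10 of the 14 called genes with a symbol. The core AGAACA of the element shared by the mineralocorticoid and glucocorticoid receptors, searched on both strands, occurs in 19% of all windows and in none of these 10 genes. The core with its complement 3 bases away, as a full element has it, occurs in 3 windows of 32851 (0.00913%), none of them of a called gene. TGACG was also found in the windows of Myh7, Ogdhl and Whrn, and the E-box CACGTG, which is in 7.15% of all windows, in those of Ogdhl, Cck and Slc51a. Elements outside these windows were not searched.

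The calls differed in how they held. Myh7 and 1 probe without a symbol were called in all 17 settings tried and in all 8 fits that left out 1 array. Agt, Calca, Ndnf and Ogdhl were called in all 8 of the latter, Csdc2 in 6, Cck in 5, Whrn in 3, and Kcnv2, Phyhd1, Slc51a and Usp17la in 2. Of the 17 settings, Agt, Ndnf, Ogdhl, Csdc2 and Phyhd1 were called in 16, and Cck and Whrn in 14. Slc51a was called in 12 of the 17, Kcnv2 in 11 and Wnk2 in 7. Calca was called in 14 and Usp17la in 10 of the 16 settings that tested them. Without flox replicate 4 and cardioMRKO replicate 1, the arrays with the highest airway marker level, 8 genes were called, 6 of them among the 19. Agt (−1.03 against −1.01 with all arrays, adjusted p = 0.0910 by limma) and Ogdhl (−2.0 against −2.09, adjusted p = 0.0751) were then not among them, with differences of about the same size, and Myh7, Ndnf and Calca were. With the airway level of each array as a covariate, chosen after seeing the data, 21 genes were called, 16 of them shared, and with the brown adipocyte level 16, all shared. Leaving out 1 array gave between 7 (without flox replicate 3) and 18 genes, with 9 without cardioMRKO replicate 2 or 3 and 12 without flox replicate 2 or cardioMRKO replicate 1. The 8 arrays at 1 month fitted alone gave 10 genes, 7 of them shared, and a fit with a weight for each array gave 187, including all 19.

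The arrays at 2 months measured the same genotypes in other hearts. At that age 707 genes were called (3.53%), 310 higher (1.55%) and 397 lower (1.98%) in cardioMRKO, and the groups did not overlap for 10.2% of genes. Of the 19 genes called at 1 month, 14 were called in the same direction at 2 months, 1 in the opposite direction and 4 were not called. Myh7 was 3.16 higher, Ndnf 1.23, Slc51a 1.00 and Cck 0.62, and Csdc2 was −1.37, Kcnv2 −1.32, Ogdhl −1.31, Phyhd1 −1.05, Whrn −0.76 and Agt −0.54. The genes with a symbol that were not called at 2 months were Calca (0.48, limma adjusted p = 0.151), Usp17la (0.38, adjusted p = 0.410) and Wnk2 (−0.36, adjusted p = 0.0603). The change between the ages was called for 150 genes (0.748%) and for none of the 14 with a symbol, so a smaller difference of Calca at 2 months was not shown. For Calca the change was −1.06 (limma adjusted p = 0.0683). For the uncalled genes described below, differences at 2 months are given for a part of them.

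**Figure D2:**
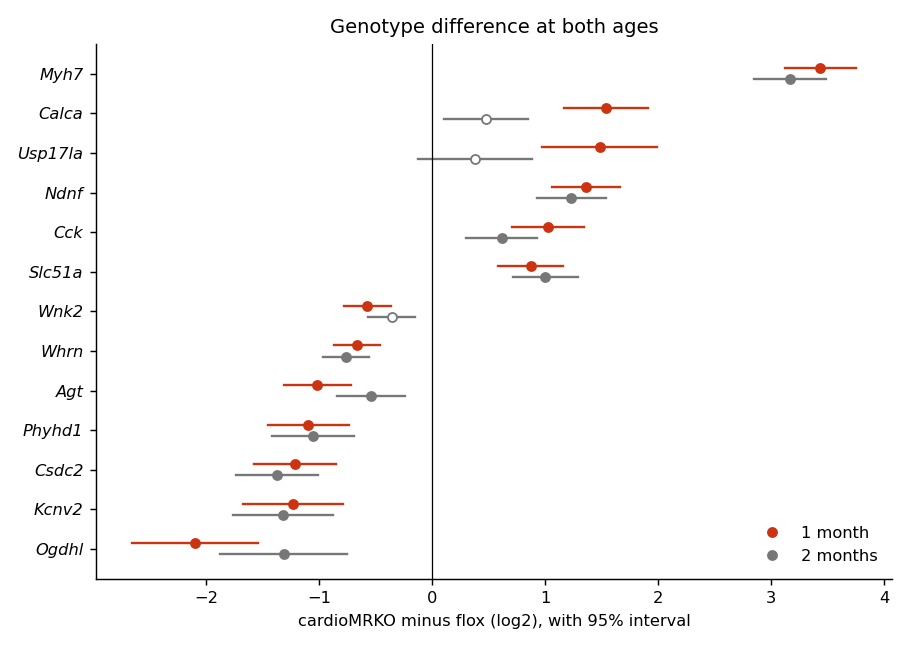
Difference cardioMRKO minus flox (x axis, log2) of the called genes described in the text at 1 month (red) and at 2 months (grey), with 95% intervals of the limma fit and 4 arrays per group at each age. Filled circles were called at that age and open circles were not; the sign is the same at both ages for all genes drawn, from Myh7 at 3.44 and 3.16 to Ogdhl at −2.09 and −1.31.

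Genes with large differences and no overlap of the genotypes that were not called came next. Acsm5, an acyl-CoA synthetase of the mitochondrial matrix, stood at −3.51, −4.47, −3.70 and −3.60 in flox and −4.96, −5.64, −6.95 and −7.79 in cardioMRKO, where 2 arrays were above background. The difference of −2.52 just missed the threshold (limma adjusted p = 0.0583) and passed it without cardioMRKO replicate 1 (−2.98, limma adjusted p = 0.0079). At 2 months it was −1.96 and called (limma adjusted p = 0.0306). Vwc2, a secreted antagonist of bone morphogenetic proteins, stood at −0.88 to −0.47 against −3.30 to −1.72 (difference −1.67, limma adjusted p = 0.220). Chrm1, a muscarinic acetylcholine receptor, stood at −3.95 to −3.46 in flox and −6.09 to −4.84 in cardioMRKO. That is a difference of −1.75 (limma adjusted p = 0.233), against 2.67 at 2 months (limma adjusted p = 0.00253). Chrm1 was dim, and with normexp background correction its difference at 1 month was −0.57. Acot3, a peroxisomal acyl-CoA thioesterase with close copies in the genome, and Mstn, the muscle growth inhibitor myostatin, were above background on all flox and no cardioMRKO arrays. They were at least 1.45-fold and 1.56-fold lower (limma adjusted p = 0.396 and 0.667; group means −5.36 and −6.66, and −5.27 and −6.51).

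The uncalled genes that were higher included a stress hormone and genes set by a single array. Gdf15, a stress-induced circulating factor, stood at −2.18, −2.36, −2.19 and −2.65 in flox and −1.42, −1.45, −0.50 and −1.37 in cardioMRKO. The genotypes did not overlap, but the difference of 1.16 did not pass (limma adjusted p = 0.786), and replicate 3 of cardioMRKO stood apart from the other arrays of its group. Meig1, a gene known from spermatogenesis, stood at −2.14 to −1.57 against −1.17 to −0.42 (difference 1.12, limma adjusted p = 0.146). Hmgb2, a chromatin protein of dividing cells, differed by 1.38, and flox replicate 1 read −0.77 while the other flox arrays read 2.26 to 2.37, and the cardioMRKO arrays 2.80 to 3.10. Without that array Hmgb2 differed by 0.61, and Vwa7, for which the same array read −4.13 against −2.26 to −1.97 in the other flox hearts, by 0.58 rather than 1.08. BC048679 and Fnd3c2 differed by 1.19 and 1.11, with 1 and 2 flox arrays above background. The probe of 1700018G05Rik was above background on no flox array and on 3 cardioMRKO arrays, at least 1.43-fold higher (limma adjusted p = 0.361; group means −6.74 and −5.58). No fold is given for Cyp4a12b, above background on 1 cardioMRKO and no flox array, or for 1810046K07Rik, above background on none of the 8.

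The gene lists for contraction and energy metabolism lay below 0 as groups. Over all genes tested 45.7% lay below 0, while 42 of 44 oxidative phosphorylation genes did (median −0.20), as did 34 of 37 genes of fatty acid uptake and oxidation (−0.22), 25 of 27 of the citric acid cycle and its relatives (−0.17) and 25 of 30 of the sarcomere and Z-disc (−0.19). With the exception of Ogdhl (lower) and Myh7 (higher), none of their members was called. An unadjusted p under 0.05 with a negative difference, found for 2.28% of all genes, was found for 4, 12, 6 and 6 members of these lists. Per array, the median deviation of the oxidative phosphorylation genes from their mean over the 8 arrays was 0.09, 0.07, 0.18 and 0.06 in flox and −0.17, −0.04, −0.08 and −0.09 in cardioMRKO. No array of either genotype crossed over for that list or for the citric acid cycle and sarcomere lists. At 2 months the median over all genes was −0.081. The oxidative phosphorylation list then had a median of −0.20 with 36 of 44 below 0, and the fatty acid list −0.24 with 30 of 37. The citric acid cycle list had −0.23 with 23 of 27 below 0, and the sarcomere list −0.088 with 19 of 30.

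**Figure D3:**
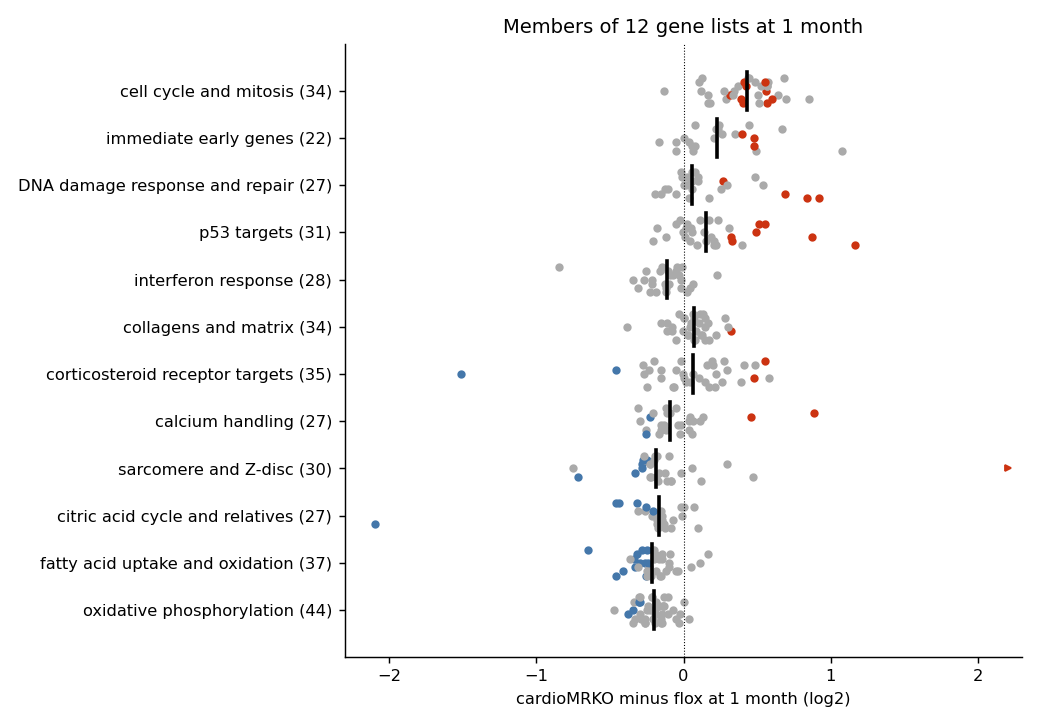
Differences cardioMRKO minus flox at 1 month (x axis, log2) of the members of 12 gene lists, with the number of members tested in brackets. Each point is a gene, red or blue where its unadjusted p was under 0.05 and the difference above or below 0, and grey otherwise; bars are list medians, and the arrowhead marks Myh7 at 3.44, beyond the axis. The bars of the 4 lists at the bottom lie at −0.22 to −0.17 and that of the cell cycle list at 0.43.

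Many members of these lists have strong signals, and the difference depended on the strength of the signal. For the 347 genes with a mean level over 6, whatever their function, the median was −0.15 and 87.9% lay below 0; for the 1144 genes at levels from 4 to 6 the median was −0.040 and 62.6% lay below 0. For genes below level −6 it was 0.087. Of the 44 oxidative phosphorylation genes 34 had a level over 6, and of the 30 sarcomere genes 16. The fatty acid list had 14 of 37 genes over that level and the citric acid cycle list 12 of 27. An unadjusted p under 0.05 with a negative difference was found for 10.7% of all genes over level 6. The per-array deviation of the 347 genes was 0.088, 0.058, 0.14 and 0.018 in flox and −0.13, −0.025, −0.039 and −0.056 in cardioMRKO.

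Quantile normalization gives every array the same distribution of signals and so takes out a shift that all strong signals share. Under it the median of the 347 genes was 0.0057, that of the oxidative phosphorylation list −0.033 (16 above and 28 below 0) and that of the sarcomere list −0.016 (14 above and 16 below). The fatty acid list kept a median of −0.13 with 30 of 37 genes below 0, and the citric acid cycle list −0.066 with 19 of 27. Glycolysis and glucose uptake, at −0.067 with 16 of 27 below 0, turned to 0.024 with 15 above and 11 below. Normexp background correction, by contrast, left the median of the 347 genes at −0.14. Slide and genotype cannot be told apart for this shift either. All 7 cardiomyocyte markers lay below 0 too (median −0.22, none called), with mean levels of 7.69 to 7.86 in flox and 7.38 to 7.60 in cardioMRKO. Of these markers, Tnnt2, Actc1, Tnni3, Mybpc3, Myl2 and Myh6 are members of the sarcomere list and Ryr2 is on the calcium handling list. The markers are therefore no separate measure, and their part in the shift was not tested.

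**Figure D4:**
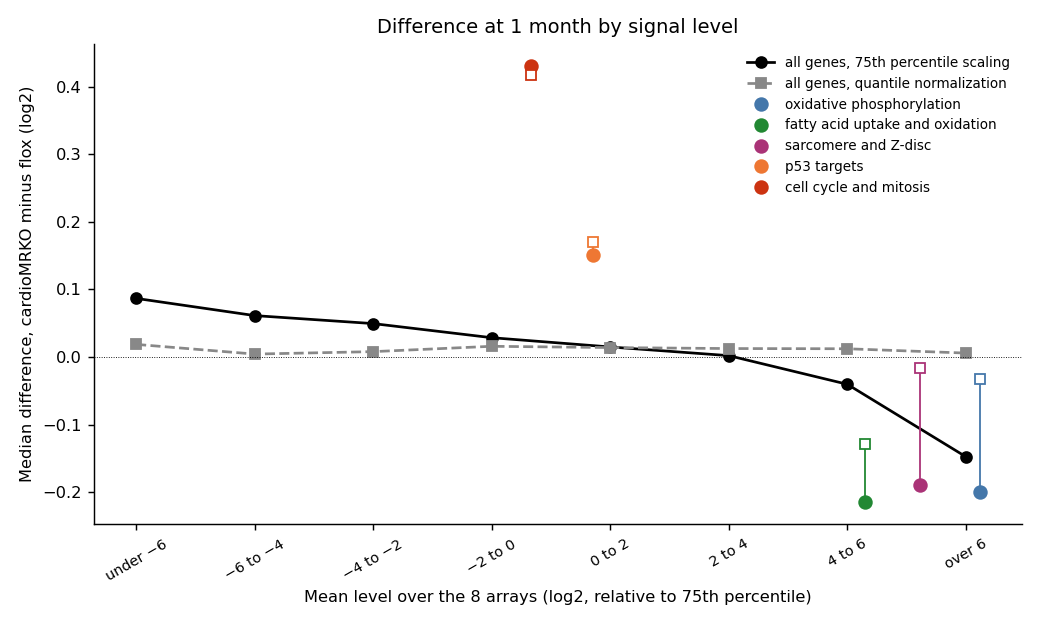
Median difference cardioMRKO minus flox at 1 month (y axis, log2) against the mean level over the 8 arrays (x axis, log2). The black line joins all genes in bins of level after 75th percentile scaling and the grey line after quantile normalization; coloured circles are medians of 5 gene lists at their median level, with open squares for quantile normalization. The black line drops to −0.15 over level 6, the grey line stays near 0, and the list of oxidative phosphorylation moves from −0.20 to −0.033.

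In the list of fatty acid uptake and oxidation, Acot1 had the largest difference. Acot1, a cytosolic acyl-CoA thioesterase, stood at 2.77, 2.82, 3.15 and 2.74 in flox and 2.05, 2.13, 2.08 and 2.61 in cardioMRKO. The genotypes did not overlap, but the difference of −0.65 (SE 0.17) was not called (limma adjusted p = 0.361); it was the same, −0.65, after quantile normalization and was called at 2 months (−0.94, limma adjusted p = 0.00860). Plin5, which coats lipid droplets in oxidative tissue, differed by −0.41 (limma adjusted p = 0.396) and by −0.35 after quantile normalization, without overlap. Acads, the short-chain acyl-CoA dehydrogenase, gave −0.29 under both, and Slc25a20, the carnitine-acylcarnitine carrier, −0.25 and −0.26. At 2 months Acads differed by 0.046, Slc25a20 by −0.047 and Plin5 by −0.42, and none of these was called. By contrast Acadvl, the very-long-chain dehydrogenase, and Acsl1, an acyl-CoA synthetase, moved from −0.34 to −0.17 and from −0.33 to −0.18. Pdk4, the kinase that shuts off pyruvate dehydrogenase, stood at 4.16 to 4.96 against 3.83 to 4.33, with overlap (difference −0.46, limma adjusted p = 0.805).

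Among other enzymes, Got1, the cytosolic aspartate aminotransferase of the malate-aspartate shuttle, stood at 6.32, 6.40, 6.35 and 6.20 in flox and 5.83, 5.99, 5.86 and 5.84 in cardioMRKO, a difference of −0.44 (limma adjusted p = 0.218) or −0.33 after quantile normalization. Mdh1 and Mdh2, the malate dehydrogenases of cytosol and mitochondria, differed by −0.26 and −0.32, and by −0.07 and −0.11 after quantile normalization. The respiratory chain subunits of smallest p, Ndufs1 and Ndufs7 (complex I), Uqcrc2 (complex III) and Atp5d (ATP synthase), differed by −0.30, −0.38, −0.29 and −0.34 (limma adjusted p from 0.704 to 0.764). After quantile normalization they differed by −0.15, −0.21, −0.13 and −0.25. Pfkfb1, an isoform of the enzyme that sets the level of a fructose bisphosphate activator of glycolysis, stood at 0.32 to 1.3 in flox and −0.97 to 0.21 in cardioMRKO, without overlap (difference −1.03, limma adjusted p = 0.425), and was called at 2 months (−1.26, limma adjusted p = 0.0306). The muscle enolase Eno3 differed by −0.39 and by −0.19 after quantile normalization. Of 21 genes of ketone and branched-chain amino acid metabolism 16 lay below 0 (median −0.14, none called), with Hibadh of valine breakdown at −0.21.

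Among contractile and calcium genes besides Myh7, a few differed more than the shift of strong signals. Myot, the Z-disc protein myotilin, stood at 0.75, 0.57, 0.96 and 0.98 in flox and 0.03, 0.20, −0.04 and 0.23 in cardioMRKO. The difference of −0.72 was not called (limma adjusted p = 0.286), was −0.71 after quantile normalization, and was called at 2 months (−1.16, limma adjusted p = 0.00231). Des (desmin, −0.28) and Myl3 (a myosin light chain of the ventricle, −0.28) did not overlap either, and came to −0.23 and −0.03 after quantile normalization. At 2 months Des and Myl3 differed by −0.081 and −0.25, without a call. On the calcium handling list 9 of 27 lay above 0 and 18 below (median −0.091, none called). Casq1, the calsequestrin of fast skeletal muscle, was higher by 0.89 without overlap, at −0.81 to −0.47 in flox and 0.10 to 0.38 in cardioMRKO. It missed the threshold (limma adjusted p = 0.455) and was called at 2 months (1.78, limma adjusted p = 0.00231). The mean of 6 skeletal muscle markers was −2.97 to −2.62 in flox and −2.99 to −2.71 in cardioMRKO. Cacna1g, a T-type calcium channel of pacemaker and fetal cardiomyocytes, stood at 0.64 to 1.06 against 1.24 to 1.34 (difference 0.46, limma adjusted p = 0.336). The release channel Ryr2 and the junctional protein Jph2 differed by −0.25 and −0.23, and by −0.21 and −0.18 after quantile normalization, without overlap of the genotypes on the scaled levels.

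The other fetal and hypertrophic genes lay on both sides of 0. Of 23 tested, 12 lay above and 11 below 0 with a median of 0.014, and Myh7 was the called member. Myl4 and Myl7, myosin light chains of the atrium, differed by −0.24 and −0.29 with overlapping arrays, and came to −0.12 and −0.081 after quantile normalization. Uchl1, a deubiquitinase, stood at −1.28 to −0.98 in flox and −0.90 to −0.43 in cardioMRKO (difference 0.46, limma adjusted p = 0.761). Slc2a1, the fetal glucose transporter, stood at 1.66 to 1.95 against 1.97 to 2.24, higher by 0.40 without overlap (limma adjusted p = 0.874). The 34 collagen and matrix genes had a median of 0.070, 25 of them above 0, none called. Without flox replicate 4 and cardioMRKO replicate 1 that median was 0.0075 with 19 above and 15 below 0.

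Genes of the cell cycle, of p53 and of DNA repair lay above 0. Over all genes 54.3% lay above 0 and 3.73% had an unadjusted p under 0.05 with a positive difference. Of 34 cell cycle and mitosis genes 33 lay above 0, with a median of 0.43, 9 had an unadjusted p under 0.05, and none was called. Per array the median deviation of the list was −0.04, 0.04, −0.29 and −0.54 in flox and 0.47, 0.21, 0.05 and 0.14 in cardioMRKO. The genotypes did not overlap, though flox replicate 2 and cardioMRKO replicate 3 lay next to each other. The list rested in part on flox replicate 4 and cardioMRKO replicate 1, the extreme arrays, without which the median was 0.25 with 29 of 34 above 0. At 2 months the median of the list was 0.21, with 27 of 34 above 0.

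Single cell cycle genes show the same spread. Plk1, a mitotic kinase, stood at −0.65, −0.45, −0.72 and −1.0 in flox and 0.19, −0.19, −0.43 and 0.01 in cardioMRKO (difference 0.60, limma adjusted p = 0.795). Aurka, the kinase of the spindle poles, differed by 0.57, Tyms, which makes thymidylate for DNA synthesis, by 0.42, and Mcm2, of the replicative helicase, by 0.41 (limma adjusted p from 0.610 to 0.734). Cenpf, a kinetochore protein, differed by 0.40 at 1 month (limma adjusted p = 0.532) and was called at 2 months (0.65, limma adjusted p = 0.0137). Among repair genes, of which 20 of 27 lay above 0 (median 0.058), Exo1, an exonuclease of DNA repair, was 0.69 higher without overlap, and Ddias, an anti-apoptotic gene of the damage response, 0.92. Neither passed at 1 month (limma adjusted p = 0.593 and 0.405), and Ddias was called at 2 months (2.23, limma adjusted p = 0.000342).

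The p53 targets had 25 of 31 members above 0 with a median of 0.15, and 7 with an unadjusted p under 0.05. None was called. Their median deviation was −0.08, −0.12, −0.08 and −0.06 on the flox arrays and −0.02, 0.09, 0.18 and 0.08 on the cardioMRKO arrays, with no overlap. Eda2r, a death receptor of the tumour necrosis factor family, stood at −2.80, −2.79, −2.60 and −3.07 in flox and −2.39, −1.98, −1.58 and −1.81 in cardioMRKO. The difference was 0.87 (limma adjusted p = 0.188), and it was called with the airway level as a covariate (1.01, limma adjusted p = 0.0368) and at 2 months (1.29, limma adjusted p = 0.00231). Phlda3, an inhibitor of Akt, stood at 3.6 to 3.99 against 4.14 to 4.35, without overlap (difference 0.49, limma adjusted p = 0.361). Cdkn1a, the cell cycle inhibitor p21, differed by 0.55 with overlapping arrays (limma adjusted p = 0.786) and was called at 2 months (0.98, limma adjusted p = 0.0365). Zmat3 and Rrm2b differed by 0.32 and 0.33 with overlap, and Tnfrsf10b by 0.51, a sign that turned under normexp background correction. That correction also lowered the median of the list to 0.072, with 22 of 31 above 0. At 2 months the median of the list was 0.082, with 20 of 31 above 0. Phlda3, Zmat3, Rrm2b and Tnfrsf10b then differed by 0.19, 0.10, −0.075 and −0.28, and none of these was called.

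**Figure D5:**
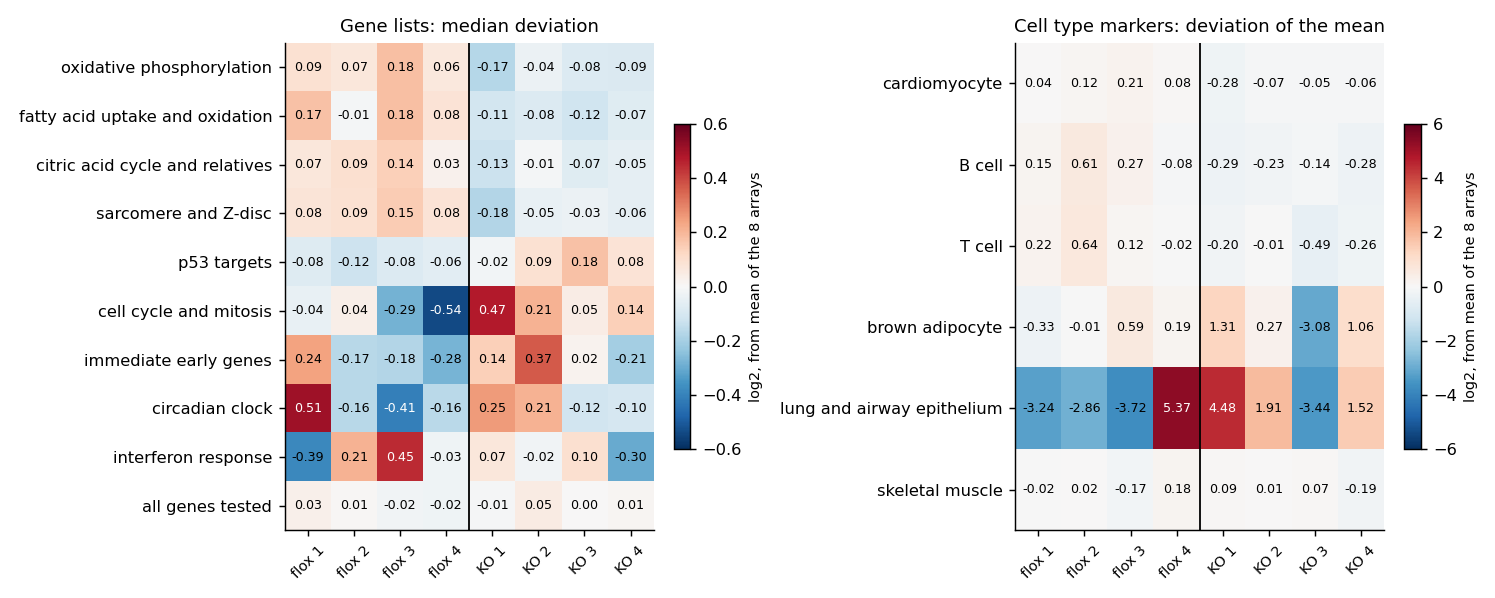
Left, median deviation of gene lists and of all genes tested, and right, deviation of the mean level of cell type markers, on each of the 8 arrays from the mean of the 8 arrays (log2, colour and printed value; the colour scales differ). The 4 upper lists are above 0 in flox and below 0 in cardioMRKO with 1 exception (fatty acid list, −0.01 in flox replicate 2), while clock, interferon and airway rows differ most between arrays of the same genotype.

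Known targets of corticosteroid receptors lay on both sides of 0. Of 35 targets tested 21 lay above and 14 below 0 with a median of 0.064, and none was called. The best known, Sgk1 (a kinase that keeps sodium channels at the membrane), stood at 3.84, 3.19, 3.57 and 3.45 in flox and 3.59, 3.93, 3.59 and 3.19 in cardioMRKO, a difference of 0.064 with full overlap. Fkbp5, a chaperone of steroid receptors, stood at −0.94 in flox replicate 1, −2.81 to −2.23 in the other flox hearts and −2.82 to −0.99 in cardioMRKO (difference 0.49, limma adjusted p = 1.00). Lcn2, the lipocalin NGAL and a known aldosterone target, stood at −4.66, −4.91, −4.76 and −3.55 in flox and −6.52, −6.06, −5.37 and −5.97 in cardioMRKO, where 1 array was above background. It was the member with the largest difference (−1.51, limma adjusted p = 0.439), without overlap. With normexp background correction Lcn2 differed by −0.36. Lcn2 is also expressed in neutrophils. The neutrophil genes S100a8 and S100a9 differed by −1.74 and −1.53 with overlapping arrays, and a link between these and Lcn2 was not tested. Of the 14 receptors and steroid enzymes tested 8 lay above and 6 below 0, and none was called. Among the 14 adrenergic and muscarinic receptors 11 lay below 0 (median −0.073), with no call.

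Markers of B cells lay below 0. The mean of 6 B cell markers was −4.43, −3.98, −4.32 and −4.67 in flox and −4.88, −4.82, −4.73 and −4.87 in cardioMRKO, with 4 or 5 of the 6 above background per array in flox and 3 or 4 in cardioMRKO. All 5 that could be tested lay below 0 (median −0.66), and none was called. At 2 months their median was −0.027, with 1 above and 4 below 0. Cd22, a B cell receptor that is not on the list, was named for its fall without overlap and so adds no separate support. It was above background on all flox and no cardioMRKO arrays, at least 1.42-fold lower (limma adjusted p = 0.762, group means −5.41 and −6.68). T cell markers leaned the same way. The mean of 6 T cell markers was −3.90 to −3.24 in flox and −4.37 to −3.89 in cardioMRKO, which overlap narrowly. Of these 5 lay below 0 and 1 above (median −0.52), and none was called. The genotypes did not overlap, with cardioMRKO lower, for 3 T cell markers and 1 B cell marker, against 3.68% of all genes. At 2 months the T cell median was 0.27, with 5 above and 1 below 0. Endothelial, fibroblast, smooth muscle and macrophage markers had medians between −0.13 and 0.11, and none was called. Of 29 innate immune and macrophage genes 16 lay above 0, with Cd163, a scavenger receptor of resident macrophages, 0.54 and Tlr4 0.40 higher (limma adjusted p = 0.786 and 0.790).

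Clock, immediate early and interferon genes ranged widely among hearts of the same genotype. The 19 clock genes had a median of 0.22, but none had an unadjusted p under 0.05. Arntl, the positive arm of the clock, stood at −3.80 in flox replicate 1, −4.01 and −4.25 in cardioMRKO replicates 1 and 2, and −1.12 to −0.08 in the other 5 hearts. Per2 and Ciart, of the negative arm, stood at 0.39 and 0.13 in flox replicate 1, against −2.69 to −1.58 and −3.75 to −2.0 in the other flox hearts. Fos, an immediate early gene, ranged from −3.60 to −2.11 in flox and from −3.68 to −0.84 in cardioMRKO. Of 22 immediate early genes 19 lay above 0 (median 0.23); Fosb was 0.48 higher without overlap (limma adjusted p = 0.654), and without flox replicate 4 and cardioMRKO replicate 1 the median was 0.083. Of 28 interferon response genes 24 lay below 0 (median −0.11), none with an unadjusted p under 0.05, and their median deviation ranged from −0.39 to 0.45 within flox.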

How the data were processed

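Whole-heart RNA of 16 mice was measured on 1 Agilent single-colour array each. The file headers give Agilent Feature Extraction 12.0.0.7 as the software. Version 9.5 stands in the submitters' processing notes. The deposited values are fluorescence intensity on a linear scale, which per the file headers had its background subtracted and its spatial trend removed array by array. The deposited series matrix held the same values, so the authors had not normalized them between arrays.

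Outlier spots were treated as missing (no more than 1 of the 4 arrays of a group), and spots of a probe were averaged. Values were then taken as log2 minus the 75th percentile of the array over the 41174 probes that are not controls. Of these, 27278 probes were kept that exceeded background clearly on every array of 1 group or more. RefSeq accessions gave a symbol to 28223 of the 41174 probes. The brightest probe stood for a gene, which left 20056 genes, 14954 with a symbol.

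The comparisons used lmFit and eBayes of limma 3.58.1 (R 4.3.3) with 1 mean per group, 12 residual and 2.19 prior degrees of freedom, two-sided, with Benjamini-Hochberg adjustment over all genes of a comparison. The fit was tested on simulated data. Exact permutation tests ran over all 70 splits of 4 against 4 arrays. For "at least N-fold", a group below background on every array was given, array by array, the higher of its own signal and the lowest signal well above background. Named were Nr3c2 and Nr3c1, all called genes with a symbol, up to 8 uncalled genes per direction with genotypes apart and an unadjusted p under 0.05 by size of difference, up to 6 members of each of 28 gene lists by smallest p, up to 5 genes per direction called for the change between ages, and cell type markers; those with values in the text are a part of these, and some that the rule names are not reported here. Members and lists were chosen with earlier results of these data known. Alternatives were normexp background correction, other scalings, filters, probe rules and spread estimates, covariates, a replicate block and leaving out arrays. Replicate numbers did not pair the arrays: the deviations of same-numbered arrays correlated at −0.0079, −0.094, 0.26 and −0.035. Slide was no term, since by the names of the raw array data each group lay on its own. The number of arrays limits the precision.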

Additional observations from a re-analysis of the deposited data

Results flagged for a closer look

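Levels of single arrays that stood apart from the other 3 of their genotype were flagged among the named genes and marker means, in 15 of 258 groups of 4 arrays tested, and chance flags about 1 in 20 such groups. In cardioMRKO these were Cckbr at −2.167 in replicate 1, Ndnf at 0.145 in replicate 2, Calca at −3.785, Gdf15 at −0.4957, Slc2a1 at 1.966 and Ddias at −3.53 in replicate 3, and Wnk2 at 0.08919 and Acot1 at 2.608 in replicate 4. In flox they were Hmgb2 at −0.7711, Vwa7 at −4.132 and Dnajb9 (a chaperone of the endoplasmic reticulum) at 0.5568 in replicate 1, and Dusp1 (a MAP kinase phosphatase) at 2.351 and Col1a1 (collagen I) at 5.139 in replicate 2. The mean of the cardiomyocyte markers was 7.376 in cardioMRKO replicate 1, below the others, and that of the lung and airway epithelium markers 2.932 in flox replicate 4, above the others.

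Genes whose genotype difference changed between the ages by the interaction test of limma (difference at 2 months minus that at 1 month) were flagged as well. The change was positive for the muscarinic receptor Chrm1 (4.414), for a probe without a symbol (3.753), for Gm8363 (2.152) and Gm5039 (2.058), for the probe of Myh8 (a perinatal myosin heavy chain, 1.99) and for Mydgf (a secreted factor, 1.827). At 1 month Chrm1, Myh8 and Mydgf differed by −1.75, −0.70 and −0.46, with the genotypes apart and no call, and at 2 months by 2.67, 1.29 and 1.36. For the dim Chrm1 the 1-month difference was −0.57 with normexp background correction, so the size of its change depends on the processing. The change was negative for Artn (a neurotrophic factor, −3.458), Cyp4a12b (−2.871), 1700018G05Rik (−2.836), Kiss1 (the kisspeptin gene, −2.477), B830017H08Rik (−2.118) and Prm1 (protamine, −1.888). Of these, Artn, Cyp4a12b, 1700018G05Rik and Kiss1 were above background on none of the 4 flox arrays at 1 month, so the size of their change rests on a level that was not measured.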

How the results depend on the processing

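The count of 19 genes called at 1 month was 16 to 22 under scaling, filter, probe, flag, trend and covariate alternatives and under the replicate block (20). It was 12 with normexp, 10 with the 8 arrays alone, 8 without both arrays of highest airway level, 187 with array weights, and 7 to 18 leaving out 1 array. The 15 genes called at both ages, in either direction, became 61 with array weights, 7 without the airway arrays and 5 to 12 leaving out 1 array. The 150 genes called for the change between ages became 97 without a filter on dim probes, 472 with array weights, 491 with the replicate block, 24 without the airway arrays, 43 with the airway level as a covariate (added after seeing the data) and 60 to 259 leaving out 1 array. Signs turned for Nr3c2 (0.016), Tnfrsf10b (−0.086) and Gm5039 (−0.0091) with normexp, and Sgk1 ranged from −0.056 to 0.19 leaving out 1 array, negative without replicate 2 of either genotype. The causes of these moves were not tested; fits on fewer arrays have fewer degrees of freedom. The deviations of 1 of 4 same-numbered pairs correlated above 0.1, so the replicate number was not taken as a pairing.

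Limits: 4 arrays per genotype, 1 slide per genotype by the names of the raw array data, dim probes (Calca, Cck, Usp17la, Acsm5, Ogdhl, Kcnv2, Chrm1), a shift of strong signals that quantile normalization removes, and arrays that differ in airway and brown adipocyte markers.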
